A study of Mus musculus with 2 samples.

Results

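The miR-181 family of the mouse comprises 6 microRNA genes in 3 clusters of 2, and it was described here in microRNA sequencing libraries of the hippocampus. The members were taken by name (Mir181a-1, Mir181a-2, Mir181b-1, Mir181b-2, Mir181c and Mir181d), and they are 6 of the 2202 microRNA genes counted. The tissue, labelled as a layer of the hippocampus, came from male B6CASTF1/J mice, the hybrid of C57BL/6J and CAST/EiJ, at 10 days of age. There was 1 group with 2 biological replicates, each labelled as 3 males, and no treatment or genotype was compared. Total RNA was used, with a size range below 30 nucleotides. Both replicates carry the same donor identifier in the labels although their animal numbers differ, so the spread between them may in part be technical. With 2 libraries a sign-flip permutation test cannot give a p below 0.5, and the design implies a description of levels and of the difference between libraries.

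MicroRNAs are cut from hairpin transcripts, first in the nucleus by Drosha and then in the cytoplasm by Dicer, and 1 strand of the resulting duplex guides Argonaute proteins to messenger RNAs. Target choice depends mainly on the seed, bases 2 to 8 of the mature microRNA. The miR-181 family is well known from the thymus, where miR-181a tunes T cell receptor sensitivity, and in hippocampal neurons miR-181a has been described as a repressor of an AMPA receptor subunit.

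The mature products show how the 6 genes are related and which of them reads can tell apart. They are given from RefSeq (GRCm38.p6), 5′ to 3′, with the seed in capitals. All 6 genes were matched by symbol, and 10 distinct products were listed. The products of the 5′ arm, which are the guide strands described for this family, were as follows.
miR-181a-5p: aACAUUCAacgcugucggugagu
miR-181b-5p: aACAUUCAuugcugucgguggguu
miR-181c-5p: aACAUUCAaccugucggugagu
miR-181d-5p: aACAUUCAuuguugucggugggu

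All 4 products of the 5′ arm hold the seed ACAUUCA, and among the mature products of the 1058 genes in the sequence table no gene outside the family holds it. Counted from 1 at the 5′ end, miR-181a-5p and miR-181b-5p differ by the substitutions A9U, C10U and A21G over the 23 positions compared. From miR-181b-5p to miR-181d-5p the change is C12U alone, apart from the last base of the longer product. A single inserted or deleted base (an edit distance of 1) separates miR-181a-5p from miR-181c-5p. All these differences lie outside the seed.

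The products of the 3′ arm are less alike and differ in their seeds, and each was found in 1 hairpin only.
miR-181a-1-3p: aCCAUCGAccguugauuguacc
miR-181c-3p: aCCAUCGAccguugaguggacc
miR-181a-2-3p: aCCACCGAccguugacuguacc
miR-181b-1-3p: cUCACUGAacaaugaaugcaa
miR-181b-2-3p: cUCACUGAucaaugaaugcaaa
miR-181d-3p: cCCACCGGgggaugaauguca

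The 3′ products of Mir181a-1 and Mir181c share a seed, as do those of Mir181b-1 and Mir181b-2, while those of Mir181a-2 and Mir181d hold seeds of their own. From miR-181a-1-3p to miR-181a-2-3p the substitutions were U5C and U16C, and the first of these lies in the seed. From miR-181b-1-3p to miR-181b-2-3p the substitution was A9U, apart from the added last base.

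Whether a read can be assigned to a gene follows from these sequences. The deposited counts hold reads assigned to 1 gene, and reads that fit several places form a separate total. miR-181a-5p occurs in both Mir181a hairpins and miR-181b-5p in both Mir181b hairpins, so a read of exactly these bases fits 2 genes. The other 8 products occur in 1 hairpin of the 2201 searched, among them both products of Mir181c and both of Mir181d. The 4 hairpins with a shared product are shown with their mature products in capitals, because the flanks decide which longer or shifted reads can be placed.
Mir181a-1: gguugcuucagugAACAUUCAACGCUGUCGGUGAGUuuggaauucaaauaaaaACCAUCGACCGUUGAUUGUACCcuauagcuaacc
Mir181a-2: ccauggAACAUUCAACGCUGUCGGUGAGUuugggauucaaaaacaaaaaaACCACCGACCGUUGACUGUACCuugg
Mir181b-1: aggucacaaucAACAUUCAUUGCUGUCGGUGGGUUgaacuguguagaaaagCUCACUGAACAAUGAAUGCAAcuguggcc
Mir181b-2: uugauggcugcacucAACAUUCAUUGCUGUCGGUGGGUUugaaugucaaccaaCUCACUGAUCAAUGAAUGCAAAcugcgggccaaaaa

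Around miR-181a-5p the 2 hairpins hold the same 1 base before and the same 4 bases after the product, a shared run of 28 bases. Around miR-181b-5p they hold the same 2 bases before it and no common base after it, a shared run of 26 bases. The first base after the 24 bases of miR-181b-5p is G in Mir181b-1 and U in Mir181b-2. Of all windows of 22 bases, 89.4% were found in no other counted hairpin for Mir181a-1, 87.3% for Mir181a-2, 91.5% for Mir181b-1 and 92.6% for Mir181b-2. For Mir181c and Mir181d this was 100% of windows. The shared windows, 7 in each Mir181a hairpin and 5 in each Mir181b hairpin, lie over the shared 5′ product. These are therefore percentages of windows and not of reads. The counts do not separate the arms of a hairpin, so the share of 5′ and 3′ products within a gene was not analysed here.

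The 3 clusters lie on chromosomes 1, 2 and 8 (mm10, GENCODE M21). Mir181a-1 (chr1:137966455-137966541, plus strand) and Mir181b-1 (chr1:137966639-137966718) are 97 bases apart within an intron of the noncoding transcript Gm4258. Mir181b-1 also lies in an exon of the long noncoding RNA A430106G13Rik, which Mir181a-1 overlaps in part. Mir181a-2 (chr2:38852735-38852810, plus strand) and Mir181b-2 (chr2:38853830-38853918) are 1019 bases apart, opposite an intron of Nr6a1, an orphan nuclear receptor gene, with no annotated host on their own strand. Mir181c (chr8:84178873-84178961, minus strand) and Mir181d (chr8:84178716-84178787) are 85 bases apart within an intron of Nanos3, a germ cell gene, on its strand.

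The libraries held 4815761 counts on microRNA genes in replicate 1 and 3495401 in replicate 2, and for every counted read 0.968 and 1.15 further reads fitted several places. At this depth 3 counts, the limit for a count of 0, corresponded to 0.623 and 0.858 counts per 1000000 counts on genes (CPM, the unit of all levels below). Intervals are exact Clopper-Pearson intervals at the 95% level and, like these limits, cover counting error only. The tissue label was checked against a list of 13 neuronal genes, each detected in at least 1 library, which together took 2.05% and 1.98% of counts. Among them the neuronal Mir138-1 had 7072 and 4396 CPM, while the 3 Mir124a genes lay between 0.286 and 2.92 CPM on average and Mir124a-2 was at 0 in replicate 1. Reads that fit several places are outside these values. A low value for a microRNA with several genes therefore does not show that its product was scarce. The liver microRNA Mir122 took 0.00355% ± 0.000565 of counts (SD, n = 2). Other lists differed between the libraries, with red blood cell markers at 0.123% and 0.00764%, choroid plexus and ciliated cell markers at 0.258% and 0.533%, and the 4 lymphoid and myeloid markers found at 0.0495% and 0.0906% in replicates 1 and 2. None of the members of these 3 lists found in the counts was at 0 in both libraries. Of 5 listed red blood cell markers 3 were found. Mir451a had 1143 and 41.5 CPM and Mir144 had 54.6 and 6.58, while Mir486 had 31.6 and 28.3. The endothelial Mir126a took 1.49% and 0.930% of counts, and the 4 oligodendrocyte markers took 0.104% and 0.174%. Of these, Mir219a-2 (569 and 991 CPM) and Mir338 (430 and 730 CPM) were higher in replicate 2. Mir219a-1 was lower there (38.4 and 19.5 CPM), and Mir219b was at 0 in both libraries. In such tissue libraries fewer cells of a type and less microRNA per cell cannot be told apart.

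The family as a whole took nearly the same share of the counts assigned to genes in both libraries. The 6 genes held 57589 counts in replicate 1, 1.20% of counts on genes (interval 1.19 to 1.21%). They held 42759 counts in replicate 2, 1.22% (interval 1.21 to 1.23%). The share was 1.21% ± 0.0194 (SD, n = 2), a coefficient of variation of 1.60%. No single gene was as even as the sum, since the coefficients of variation of the 6 genes ran from 5.49% for Mir181a-2 to 42.8% for Mir181b-1. This sum holds only reads assigned to 1 gene, so reads of miR-181a-5p and miR-181b-5p that fit 2 genes are outside it. Mir181c and Mir181d alone, whose products have no second hairpin among those searched, took 0.704% ± 0.0599 (SD, n = 2). Their coefficient of variation was 8.50%.

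Mean levels of the 6 genes in assigned reads spanned 107-fold, with 3 genes near the top and Mir181a-2 and Mir181b-1 far below. Reads of miR-181a-5p or miR-181b-5p that fit 2 genes are not in the levels of the Mir181a and Mir181b genes. Both products of Mir181c and of Mir181d occur in 1 hairpin, so the order is one of assigned reads and not of molecules. Mir181d, the last gene of the Nanos3 cluster, had 23155 counts or 4808 CPM in replicate 1 and 11930 counts or 3413 CPM in replicate 2, a mean level of 4111 ± 986 CPM (SD, n = 2). Mir181b-2, of the chromosome 2 cluster, had 17030 counts or 3536 CPM in replicate 1 and 15659 counts or 4480 CPM in replicate 2, a mean level of 4008 ± 667 CPM (SD, n = 2). The 2 libraries placed these genes in opposite order, and their ranges overlapped, so their levels did not differ beyond the spread between replicates. Mir181c had 12798 counts or 2658 CPM in replicate 1 and 11205 counts or 3206 CPM in replicate 2, a mean level of 2932 ± 388 CPM (SD, n = 2). It lay below both leading genes in both libraries, and its higher value was below the lower value of each.

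The remaining 3 genes had fewer assigned reads and kept their order in both libraries. Mir181a-1 had 4069 counts or 845 CPM in replicate 1 and 3516 counts or 1006 CPM in replicate 2, a mean level of 925 ± 114 CPM (SD, n = 2). Mir181a-2 had 408 counts or 84.7 CPM in replicate 1 and 274 counts or 78.4 CPM in replicate 2, with counting intervals of 76.7 to 93.4 and 69.4 to 88.2 CPM and a mean level of 81.6 ± 4.48 CPM (SD, n = 2). Mir181b-1, the lowest of the family, had 129 counts or 26.8 CPM in replicate 1 and 175 counts or 50.1 CPM in replicate 2, with counting intervals of 22.4 to 31.8 and 42.9 to 58.1 CPM and a mean level of 38.4 ± 16.5 CPM (SD, n = 2). The ranges of these 3 genes did not overlap with each other or with that of Mir181c. The step from Mir181c to Mir181a-1 was 3.15-fold in replicate 1 and 3.19-fold in replicate 2, while that from Mir181a-2 to Mir181b-1 was 3.16-fold and 1.57-fold. For 4 of the 5 steps in the order the ranges over the replicates thus did not overlap, while those of Mir181d and Mir181b-2 did.

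**Figure D1:**
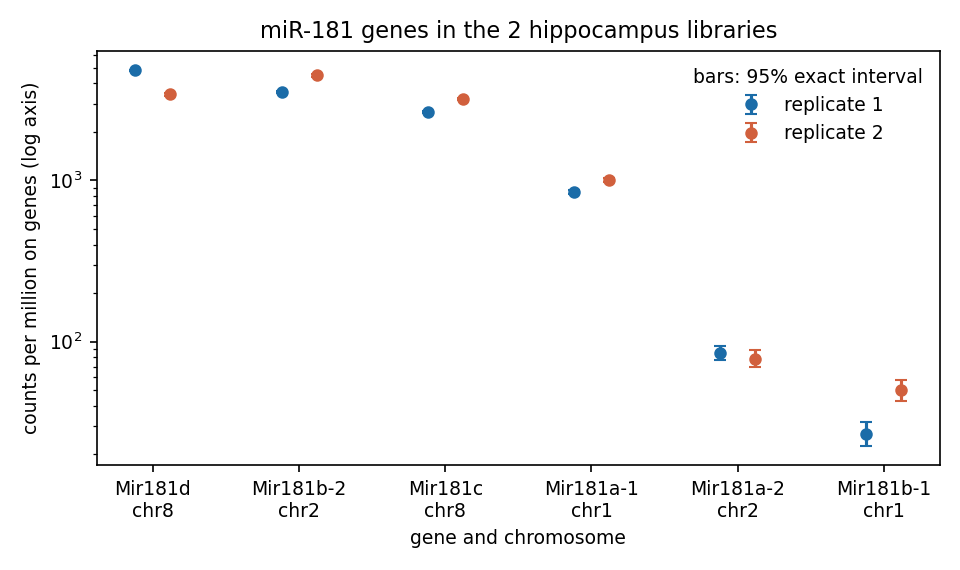
Level of each miR-181 gene in CPM (log axis), with replicate 1 in blue, replicate 2 in orange and bars for 95% exact counting intervals. Reads that fit 2 genes are not included. Mir181d and Mir181b-2 change places between the libraries, and the other genes keep their order from Mir181c at 2932 down to Mir181b-1 at 38.4 CPM on average.

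Dividing by hairpin length did not change the order. Per hairpin base, mean levels ranked Mir181d first, at 66.8 CPM in replicate 1 and 47.4 in replicate 2, and Mir181b-2 second, at 39.7 and 50.3 CPM. Per hairpin base Mir181b-1 was last, at 0.335 and 0.626 CPM. In level the highest gene of the family exceeded the lowest 179-fold in replicate 1 and 89.5-fold in replicate 2. Among all 2202 genes Mir181d ranked 37 in replicate 1 and 53 in replicate 2, and Mir181b-2 ranked 50 and 43. Mir181b-1 ranked 273 and 243.

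The cluster inside Nanos3 supplied most of the assigned miR-181 reads, and its part was smaller in replicate 2. Mir181c and Mir181d together held 62.4% of the family's counts in replicate 1 and 54.1% in replicate 2. The chromosome 2 cluster held 30.3% and 37.3%, nearly all of it from Mir181b-2. The chromosome 1 cluster held 7.29% and 8.63%, nearly all of it from Mir181a-1. The 3 leading genes together made up 92.0% of the family's counts in replicate 1 and 90.7% in replicate 2. Since the 5′ products of the chromosome 1 and 2 clusters are shared between them, their parts are parts of the uniquely assigned reads and not of all miR-181 molecules.

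**Figure D2:**
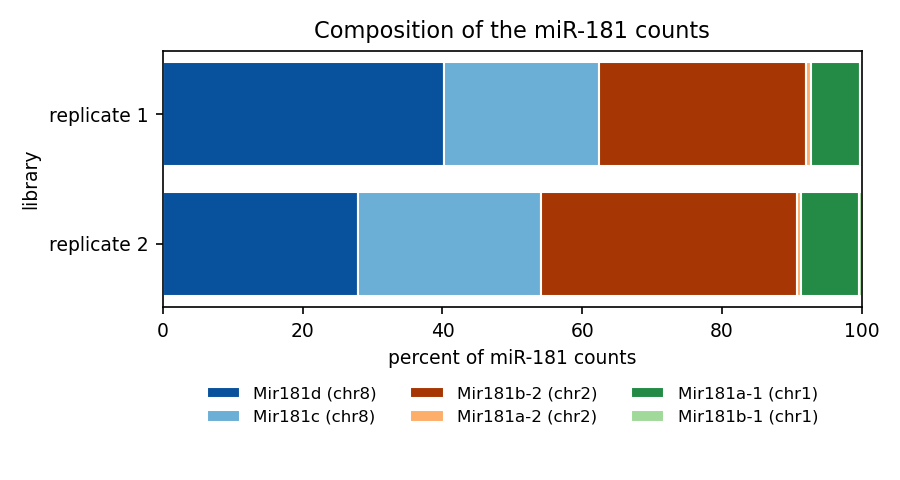
Percent of miR-181 counts held by each gene in replicate 1 and replicate 2, with blues for chromosome 8, browns for chromosome 2 and greens for chromosome 1. Mir181d shrinks from 40.2% to 27.9% and Mir181b-2 grows from 29.6% to 36.6%, while Mir181a-2 and Mir181b-1 stay below 1%.

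Genes with the same 5′ product differed strongly in assigned counts. Mir181b-2 held 99.2% (interval 99.1 to 99.4%) of the counts of both Mir181b genes in replicate 1 and 98.9% (interval 98.7 to 99.1%) in replicate 2. Its counts were 132 times those of Mir181b-1 in replicate 1 and 89.5 times in replicate 2. Mir181a-1 held 90.9% (interval 90.0 to 91.7%) of the counts of both Mir181a genes in replicate 1 and 92.8% (interval 91.9 to 93.6%) in replicate 2, a ratio of 9.97 and 12.8. The leading Mir181a gene therefore lay on chromosome 1 and the leading Mir181b gene on chromosome 2. How reads that fit both loci divide between them was not tested.

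For comparison, all pairs of genes that share an identical mature product were listed, a comparison chosen after the values of the miR-181 genes were seen. There were 38 such pairs, and in 22 of them both genes had at least 10 counts over the 2 libraries. By the ratio of mean levels, the higher gene over the lower, the Mir181b pair came first of the 22, at 104, and the Mir181a pair took place 7, at 11.3. The median ratio was 4.32, the lowest was 1.07, and 7 pairs exceeded 10. Next after the Mir181b pair came Mir92-1 over Mir92-2, at 59.2. In 20 of the 22 pairs, both miR-181 pairs among them, the same gene was higher in both libraries. The ratios are of reads that could be placed, and which reads can be placed differs between pairs. They are therefore not ratios of molecules. No test was made of the place of the miR-181 pairs in the order.

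**Figure D3:**
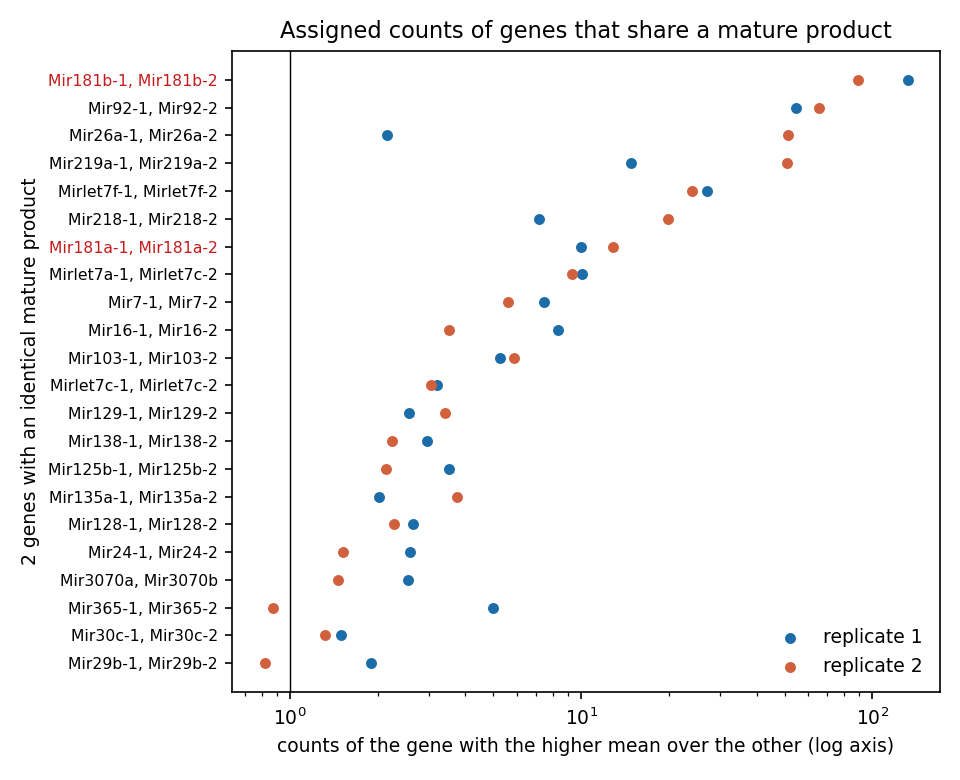
Counts of the gene with the higher mean level over those of its partner (log axis) for the 22 pairs of genes with an identical mature product, with replicate 1 in blue and replicate 2 in orange. The Mir181b pair lies at 132 and 89.5, to the right of all others, and the Mir181a pair lies at 9.97 and 12.8.

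The next question was how far the members differed between the 2 libraries. None of the 6 genes differed 2-fold or more. A total of 540 genes reached 10 counts summed over the libraries. Each was tested two-sided with an exact binomial test in which the library totals set the probability, with Benjamini-Hochberg adjustment over the 540. A call also needed a log2 ratio of 1 or more in either direction, and 101 genes were called. This is a background of 18.7%, and of the miR-181 genes 0 of 6 were called. With no minimum ratio, 5 of the 6 passed the same exact binomial test at an unadjusted p under 0.05. Again 5 passed at an adjusted p below 0.05, as did 55.7% of all tested genes. At the unadjusted p the share of all tested genes is at least as large. This test covers counting error only and compares 2 libraries of the same group.

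The direction of the difference was not shared by the family. Mir181d was 1.41-fold higher in replicate 1, a log2 ratio (replicate 2 over replicate 1, with 0.5 counts added) of -0.49 (exact binomial test, adjusted p = 1.4e-208). Mir181b-2 was 1.27-fold higher in replicate 2, a log2 ratio of 0.34 (exact binomial test, adjusted p = 8.1e-100). Mir181c had a log2 ratio of 0.27 and Mir181a-1 one of 0.25. Mir181b-1 had the largest ratio, 0.90 or 1.87-fold, on 129 and 175 counts (exact binomial test, adjusted p = 2.0e-07). For Mir181a-2 the log2 ratio was -0.11, short of the threshold (exact binomial test, adjusted p = 0.45). In all, 4 of 6 lay above 0.

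The median log2 ratio was 0.26 over the 6 genes and 0.17 over all tested genes. The median absolute log2 ratio was 0.31 over the 6 genes and 0.54 over all tested genes. Mir181b-1 had a larger absolute ratio than 71.1% of tested genes, and Mir181d a larger one than 47.0%. The lymphoid and myeloid markers, given here because miR-181 is abundant in lymphocytes, had a log2 ratio of 0.87 for their sum, with 2 of 4 called. Most of that sum was Mir150, a microRNA of mature lymphocytes, with 1793 and 2712 of the 2384 and 3168 counts and a log2 ratio of 1.06. The other called gene was Mir223, a myeloid microRNA, at 2.08 on 15 and 47 counts, while Mir155 lay at 0.10 and Mir142 at -0.33. The choroid plexus and ciliated cell markers had a log2 ratio of 1.05 for their sum. The sum of the miR-181 genes had 0.03. The part of such cells in the miR-181 levels was not tested.

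**Figure D4:**
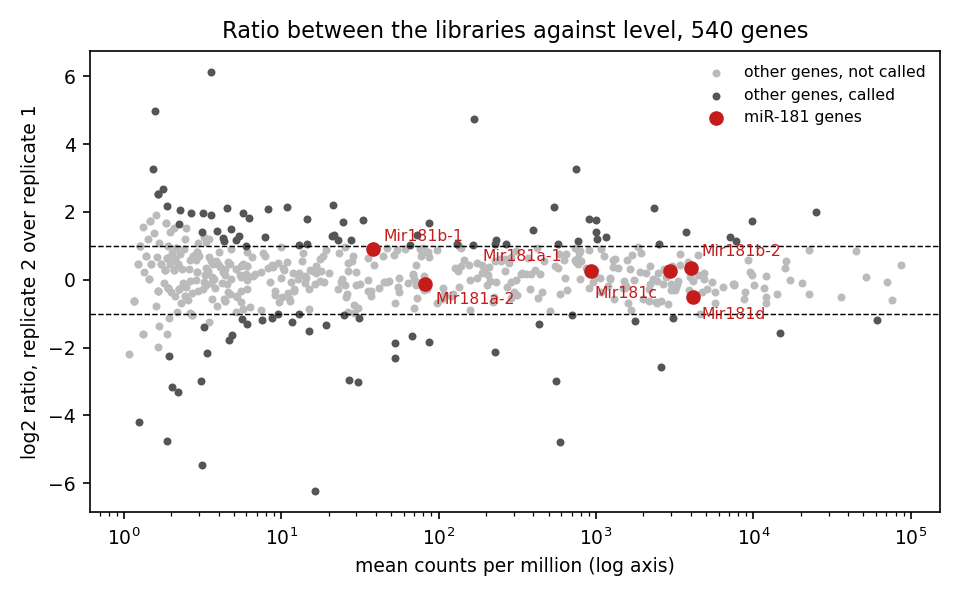
Log2 ratio of replicate 2 over replicate 1 against mean CPM (log axis) for the 540 tested genes, with miR-181 genes in red, other called genes in dark grey and dashed lines at log2 ratios of -1 and 1. All 6 miR-181 genes lie between the dashed lines, from -0.49 for Mir181d to 0.90 for Mir181b-1.

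The balance within each cluster is free of library size, and between these 2 libraries its odds differed by less than 2-fold in all 3. Fisher's exact test was run on the reads of 1 library against 1 library, so its p-values below cover counting error only, treat reads as independent molecules and do not speak for the tissue. Mir181c and Mir181d, which lie 85 bases apart on 1 strand and share no product with another searched hairpin, gave the largest difference of the 3. Mir181c made up 35.6% of the pair in replicate 1 (interval 35.1 to 36.1%) and 48.4% in replicate 2 (interval 47.8 to 49.1%). Mir181d thus had 1.81 times the counts of Mir181c in replicate 1 and 1.06 times in replicate 2. The log2 odds ratio was 0.76 (Fisher's exact test, two-sided, adjusted p = 2.8e-209).

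In the chromosome 1 cluster Mir181a-1 made up 96.9% of the pair in replicate 1 and 95.3% in replicate 2, with a log2 odds ratio of -0.65 (Fisher's exact test, adjusted p = 0.00022). In the chromosome 2 cluster the order is reversed, since Mir181a-2 made up only 2.34% and 1.72% of the pair, with a log2 odds ratio of -0.45 (Fisher's exact test, adjusted p = 0.00011). The first gene of the cluster on chromosome 1 therefore had 31.5 and 20.1 times the counts of the second. The second gene of the cluster on chromosome 2 had 41.7 and 57.1 times those of the first. In each of these clusters a gene at or near the bottom of the family in assigned reads lies beside one that is far higher. Reads of the 5′ products that fit 2 genes are in neither count. Counted from the first base of the product, the hairpins first differ after it at position 28 for miR-181a-5p and 25 for miR-181b-5p. The reads that can be placed thus differ between the 2 genes of a cluster, and the balance of all their molecules was not measured.

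These differences were read against all neighbouring microRNA genes. Of 102 pairs on 1 strand with at most 10000 bases between them and at least 10 counts per gene, 29 were called by Fisher's exact test, with adjustment over all pairs and an absolute log2 odds ratio of at least 1. Against this background of 28.4%, 0 of the 3 miR-181 pairs were called. With no minimum odds ratio, all 3 passed Fisher's exact test at an unadjusted p under 0.05 and also at an adjusted p below 0.05. At that adjusted p 77 of the 102 pairs passed, and at the unadjusted p at least as many. The median absolute log2 odds ratio of all pairs was 0.69, with the 3 miR-181 pairs at 0.45, 0.65 and 0.76.

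**Figure D5:**
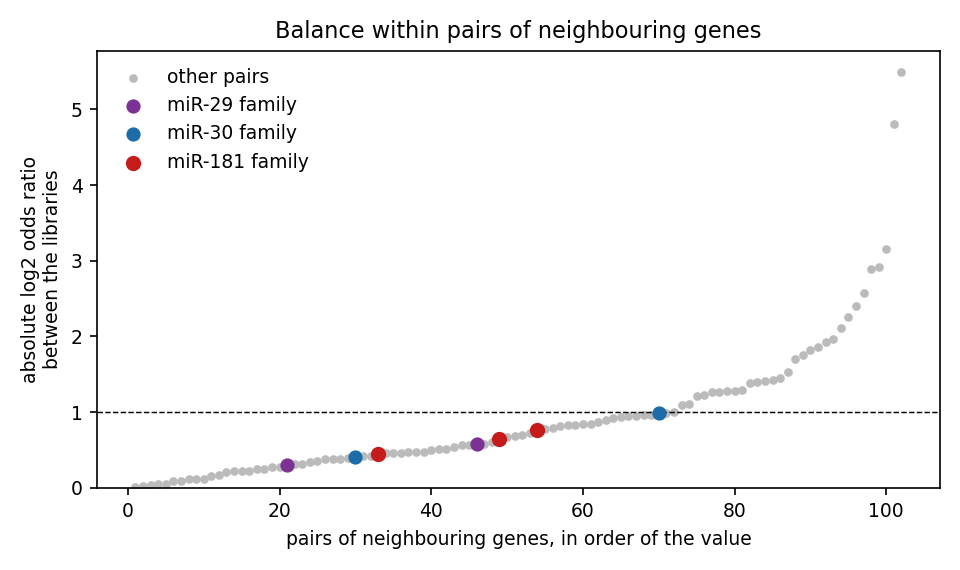
Absolute log2 odds ratio between the libraries for the 102 tested pairs of neighbouring genes, in order of that value, with a dashed line at 1. The 3 miR-181 pairs (red) lie at 0.45, 0.65 and 0.76, all below the line, with the miR-30 pairs (blue) at 0.41 and 0.99 and the miR-29 pairs (purple) at 0.30 and 0.58.

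The miR-30 family, which also has 6 genes in 3 groups of 2, took 1.58% ± 0.128 of counts (SD, n = 2), and 0 of its 6 genes were called between the libraries. It was led by a single gene, Mir30d, at 10023 ± 736 CPM (SD, n = 2). The miR-29 family, with 4 genes, took 0.127% ± 0.0770 of counts (SD, n = 2), and 3 of its 4 genes were called. The coefficient of variation of the summed share of counts on genes was 1.60% for miR-181, 8.13% for miR-30 and 60.5% for miR-29. For Mir181c and Mir181d alone it was 8.50%. The families were compared with counts on genes as the only denominator. The difference between families was not tested, so nothing in these values is shown to be particular to miR-181.

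Reads at the miR-181 genes came from the annotated strand. The sense column held all 57589 and 42759 counts, and the column of the other strand held 0 at each of the 6 genes. Over all genes the sense column held 94.5% of the counts of both stranded columns in replicate 1 and 94.3% in replicate 2. A count of 0 allows an antisense share of up to 0.00521% in replicate 1 and 0.00702% in replicate 2. The strand matters here because Gm26936 on chromosome 1 and Nr6a1 on chromosome 2 are annotated opposite the miR-181 genes, and an exon of Gm44144 lies opposite the whole of Mir181b-2. The unstranded column gave the same counts as the sense column for all 6 genes.

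Genes outside the family with the most similar values were found for each member by the Euclidean distance of log2(CPM + 1) over the 2 libraries. They were Mir17 for Mir181d (distance 0.17), Mir378a for Mir181b-2 (0.16) and Mir323 for Mir181c (0.12). For Mir181a-1 it was Mir672 (0.13), for Mir181a-2 Mir6236 (0.064), and for Mir181b-1 Mir1264 (0.21). Mir17, for example, had 4290.5 and 3492 CPM, lower in replicate 2 as Mir181d was. With 2 libraries such likeness rests on the level and on 1 difference.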

How the data were processed

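The authors deposited raw read counts per microRNA gene, 1 file per library, with 3 count columns (unstranded, then 1 per strand) under 4 summary lines of unassigned reads. Per the notes deposited with the counts, the assembly was mm10, the annotation GENCODE M21, and each file came from the reads of its own library. Aligner and counter: not given in the sources used here. The sense column was taken as the stranded column with the larger total. Of all reads, 38.9% in replicate 1 and 34.6% in replicate 2 were counted on genes, and 37.7% and 39.8% fitted several places. Library sizes and tests did not include the summary lines.

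All 2202 gene identifiers matched GENCODE M21. CPM was computed as counts per 1000000 counts on genes. Genes reaching 10 counts in sum were tested with the exact binomial test, and neighbouring genes by Fisher's exact test, with Benjamini-Hochberg adjustment and a call at an adjusted p below 0.05 and an absolute log2 value of at least 1. With 1 group there was no coefficient for edgeR's quasi-likelihood test. Both tests were tested on simulated counts with counting error only. That simulation does not cover any further variation between libraries. Mature and hairpin sequences were read from a RefSeq table (GRCm38.p6), and exact matches were searched in the GENCODE hairpins of the counted genes (2201 searched) and not in the genome. Whether CAST/EiJ alleles changed the counting was not analysed here. The named genes were the 6 members, the nearest gene to each, and the miR-30 and miR-29 families. Members, lists and tests were chosen with earlier results of these data known. Alternatives covered the scaling, filters, minimum ratios, denominators, the strand column, hairpin length, distance limits and leaving out single replicates. Software was R 4.3.3 with edgeR 4.0.16 and DESeq2 1.42.0, and Python 3.11.15 with SciPy 1.17.1, pandas 2.3.3, matplotlib 3.10.9 and numpy 2.4.6.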

Additional observations from a re-analysis of the deposited data

How the results depend on the processing

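The family's share of 1.21% became 1.29% with unstranded counts, 0.588% when reads fitting several places were added to the denominator, 0.444% of all reads, and 0.704% for Mir181c and Mir181d alone. With single replicates it was 1.20% and 1.22%. The order of mean levels was the same with TMM sizes, DESeq2 size factors, unstranded counts and per hairpin base. Without replicate 1, Mir181b-2 led in place of Mir181d. The count of 0 miR-181 genes called held under both other scalings, 2 other filters, another pseudocount and unstranded counts. It became 1 of 6 (Mir181b-1) at a minimum ratio of 1.5-fold, where 174 genes were called in all, and 5 with no minimum, where 301 were called. With a filter of 50 counts 67 of 359 genes were called. The median log2 ratio of all genes was 0.17 with library totals and 0.00094 with DESeq2 factors, and with those factors the 6 genes kept their signs, from -0.67 for Mir181d to 0.73 for Mir181b-1. Of all called genes 61.4% were higher in replicate 2 with library totals and 44.4% with DESeq2 factors. With no minimum odds ratio 3 miR-181 pairs and 77 pairs in all were called, and the 0 held under the other 5 settings. Among pairs with an identical product, the Mir181b pair came first also with minimums of 1 and 50 counts per gene, chosen after seeing the data. Leaving out a replicate ended both comparisons of libraries. No paired analysis was possible because there is 1 group. Depth limits Mir181b-1 most, at 129 and 175 counts.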
